A study of Saccharomyces cerevisiae with 12 samples.

Results

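The passaging of *ulp2* null cells of the budding yeast *Saccharomyces cerevisiae* was followed in 6 of the 12 RNA-seq libraries of the series, 3 of nascent *ulp2* null cells at 50 generations (50G) and 3 of adapted *ulp2* null cells at 500 generations (500G). The members of the comparison were these 6 libraries, chosen by strain and passage label, and the 7126 genes of the authors' FPKM table, with the 121 genes of chromosome I (systematic names starting YA) and the 588 genes of chromosome XII (names starting YL) set apart. As the paper describes the strains, all 12 libraries came from 1 strain background, MHY1379. This is a haploid *MATa* strain that is mutant at *HIS3*, *LEU2*, *LYS2*, *TRP1* and *URA3*. It carries *ulp2Δ::HIS3*, so the chromosomal *ULP2* deletion was shared by every group. The WT cells carried *ULP2* on the centromeric *URA3* plasmid YCplac33, and the *ulp2* null cells held the empty YCplac33 after eviction of the *ULP2* plasmid on 5-fluoroorotic acid. The 6 WT libraries, 3 at 50G and 3 at 500G, showed how far a passage difference was also seen with *ULP2* present, and they also entered the filter, the fit and the reference level for the chromosomes. As the paper describes it, nascent *ulp2* null cells spent about 50 generations on plasmid eviction on 5-fluoroorotic acid plates and transformation. Daily dilution into rich YPD medium at 30 °C was used for the long-term passaging. The 50G and 500G *ulp2* null cells thus differed in growth history as well as in generations, and the part of this in the passage differences was not tested. RNA was taken in mid-exponential phase. The labels do not say whether the 3 libraries of a group came from separately evolved cultures. The paper refers to the *ulp2* null cells profiled at 500G as 1 evolved strain and grew further *ulp2* null lines separately. The p-values thus measure the spread between these libraries, which may be technical. Differences between separately evolved lines are not measured by these p-values.

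Ulp2 is a nuclear protease that removes SUMO, a small protein modifier, from its targets and trims chains of SUMO. Cells without it grow poorly, and gain of chromosomes I and XII has been described for them, which is why these chromosomes were kept apart from the pathways. In yeast growing on glucose, genes for using non-fermentable carbon (the glyoxylate cycle, gluconeogenesis, the TCA cycle and respiration) are held low by repressors such as Mig1, which the kinase Snf1 counteracts, and the zinc-cluster activator Cat8 turns on many of them when glucose runs out. Ribosomal protein genes are driven by Rap1 with Fhl1 and Ifh1, heat shock protein genes by Hsf1, general stress genes by Msn2 and Msn4, proteasome genes by Rpn4, and genes for iron uptake by Aft1 and Aft2.

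FPKM is a fragment count scaled to gene length and to how many fragments of the library were mapped, so levels may be compared between genes. The table holds no counts, so the depth behind a value is unknown. *ULP2* was at 0 to 0.995 FPKM in the 6 *ulp2* null libraries and at 162 FPKM or more in the 6 WT libraries, as labelled. The *MATa* markers (*STE2*, *MFA1*, *MFA2*, *STE6*, *BAR1* and *AGA2*) summed to between 1442 and 2103 FPKM in the 6 *ulp2* null libraries, and the 4 *MATalpha* markers to between 43.1 and 65.8 FPKM, with none at 0. *TRP1* was at 0.384 FPKM or less in the *ulp2* null libraries and at 36.3 FPKM or more in the WT libraries, so the 2 strains also differed there. The described shared background and plasmids do not name this difference, and comparisons between strains may carry it. FPKM summed over all genes to 1083961 to 1198357 in nascent and 1376590 to 1449581 in adapted *ulp2* null libraries, and to 1123497 to 1160554 and 1365930 to 1539386 in the WT libraries at 50G and 500G. The sum thus moved with passage in both strains, and its part in the differences between passages was not tested.

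Promoter sequences of 10 genes that differed between passages are shown. The carbon genes *CIT3*, *PDH1*, *ADH2*, *ACS1* and *IDP2* rose. The chaperone gene *BTN2*, the iron genes *FET3*, *FIT3* and *TIS11* and the ribosomal protein gene *RPL12B* fell. These genes were picked by hand and are not the 10 largest differences. A promoter could be shown only if it held a match to the motif named, so matches here say nothing about other changed genes. Each sequence is a stretch of 150 bases from the 500 bases before the start codon, read from the R64 reference genome of RefSeq. It is given on the gene's own strand, 5′ to 3′, with capitals marking every match to the motif named.
CIT3, chrXVI:556116-556265, plus strand, carbon source response element: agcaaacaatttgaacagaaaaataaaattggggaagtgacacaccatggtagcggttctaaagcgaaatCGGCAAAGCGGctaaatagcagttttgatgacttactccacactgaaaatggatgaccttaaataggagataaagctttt
PDH1, chrXVI:558075-558224, plus strand, carbon source response element: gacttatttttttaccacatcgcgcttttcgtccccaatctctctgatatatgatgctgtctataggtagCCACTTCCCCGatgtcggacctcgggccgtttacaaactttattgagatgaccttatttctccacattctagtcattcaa
ADH2, chrXIII:874564-874713, minus strand, carbon source response element: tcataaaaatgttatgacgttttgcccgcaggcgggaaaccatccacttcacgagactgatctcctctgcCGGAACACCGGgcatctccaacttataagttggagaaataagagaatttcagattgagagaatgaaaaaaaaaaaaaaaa
ACS1, chrI:45314-45463, minus strand, carbon source response element: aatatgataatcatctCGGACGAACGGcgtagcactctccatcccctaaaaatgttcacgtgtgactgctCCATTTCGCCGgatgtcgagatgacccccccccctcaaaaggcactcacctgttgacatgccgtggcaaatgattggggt
IDP2, chrXII:504218-504367, plus strand, carbon source response element: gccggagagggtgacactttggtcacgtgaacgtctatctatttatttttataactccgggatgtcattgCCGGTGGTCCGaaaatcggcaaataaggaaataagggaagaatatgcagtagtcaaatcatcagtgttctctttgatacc
BTN2, chrVII:772045-772194, plus strand, heat shock element: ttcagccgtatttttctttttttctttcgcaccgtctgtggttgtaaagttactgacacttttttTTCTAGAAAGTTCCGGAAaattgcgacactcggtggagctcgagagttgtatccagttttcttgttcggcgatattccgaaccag
FET3, chrXIII:388501-388650, plus strand, Aft element: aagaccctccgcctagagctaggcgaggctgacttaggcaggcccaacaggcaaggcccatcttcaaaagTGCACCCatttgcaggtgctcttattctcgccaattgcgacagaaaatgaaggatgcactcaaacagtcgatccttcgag
FIT3, chrXV:1061160-1061309, minus strand, Aft element: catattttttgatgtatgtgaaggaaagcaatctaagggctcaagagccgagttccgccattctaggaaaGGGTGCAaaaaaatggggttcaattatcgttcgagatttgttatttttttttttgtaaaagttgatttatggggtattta
TIS11, chrXII:416759-416908, minus strand, Aft element: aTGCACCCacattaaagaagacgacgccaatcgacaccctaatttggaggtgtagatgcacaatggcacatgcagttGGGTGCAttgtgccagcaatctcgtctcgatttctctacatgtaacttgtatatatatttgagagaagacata
RPL12B, chrIV:1301116-1301265, plus strand, Rap1 site: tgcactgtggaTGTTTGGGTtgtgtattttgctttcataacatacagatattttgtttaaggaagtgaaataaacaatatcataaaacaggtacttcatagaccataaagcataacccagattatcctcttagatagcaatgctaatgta

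All motifs were searched on both strands, and a match describes letters only. The carbon source response element of Cat8 and Sip4 was searched as CC, any 2 bases, T, any 3 bases and CCG, and was found before 15 of 25 genes of gluconeogenesis and the glyoxylate cycle, against 7.3% of the 5890 promoters searched. The heat shock element of Hsf1, searched as GAA, any 2 bases, TTC, any 2 bases and GAA, was found before 14 of 39 heat shock and chaperone genes (35.9%, against 1.5% of all). Both *BTN2* matches overlap each other. The Aft element TGCACCC was before 22 of 39 iron regulon genes (56.4%, against 2.3%), and the Rap1 site ACCCNNACA before 18 of 56 small-subunit and 36 of 81 large-subunit ribosomal protein genes (32.1% and 44.4%, against 5.4%). Of the other motifs, the Rpn4 element GGTGGCAAA was before 63.6% of proteasome genes, against 1.7% of all promoters.

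Between nascent and adapted *ulp2* null cells, 3558 of 6572 tested genes differed (54.1%), with 1607 higher (24.5%) and 1951 lower (29.7%) at 500G, by limma on log2(FPKM + 1) with Benjamini-Hochberg adjusted p under 0.05. All log2 differences below are on that scale, which understates the change of low genes, and are given with the standard error (SE) of the fit. The excess of falls in this count lay on 2 chromosomes. Off chromosomes I and XII, 1577 of 5884 tested genes rose (26.8%) and 1441 fell (24.5%), 51.3% in all, and these shares are the background for every list below. In WT cells 40.9% of the same genes differed between passages, 21.8% higher and 19.1% lower. When each library was instead scaled to the same FPKM sum, ribosomal protein genes left out of the sum, the median log2 difference of all genes moved from -0.05 to -0.41 and higher calls went from 45.2% to 14.2% of all calls (52.3% to 16.1% off chromosomes I and XII). The balance of rises and falls thus depends on the scaling. Under that equal-sum scaling the median off chromosomes I and XII changed sign for 13 of the 47 gene lists described below, those of amino acid, purine, pyrimidine, ergosterol, and fatty acid and phospholipid synthesis, the SUMO pathway, CCR4-NOT, silencing, kinetochores, cohesin and condensin, DNA replication, histones and translation factors. Differences over 2-fold were found off chromosomes I and XII for 259 genes that rose and 252 that fell.

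The genes of chromosomes I and XII went down as a block. Of 116 tested chromosome I genes, 76 fell and 6 rose, with a median log2 difference of -0.56. Of 557 tested chromosome XII genes, 434 fell and 23 rose, with a median of -0.74, while the median over all other genes was 0.01. Set against the WT 50G mean, the median chromosome I gene stood at 0.63, 0.60 and 0.58 log2 units in the 3 nascent libraries and at 0.01, 0.04 and 0.04 in the 3 adapted libraries. The median chromosome XII gene stood at 0.74, 0.70 and 0.70 in the nascent and at -0.04, 0.03 and 0.03 in the adapted libraries. The groups did not overlap on either chromosome. The exact two-sided permutation test over libraries gave p = 0.1 for both, the smallest value that 3 against 3 allows, and p = 0.4 for the other genes (difference 0.03). In bulk RNA, fewer cells with a high level and a lower level in every cell cannot be told apart.

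**Figure D1:**
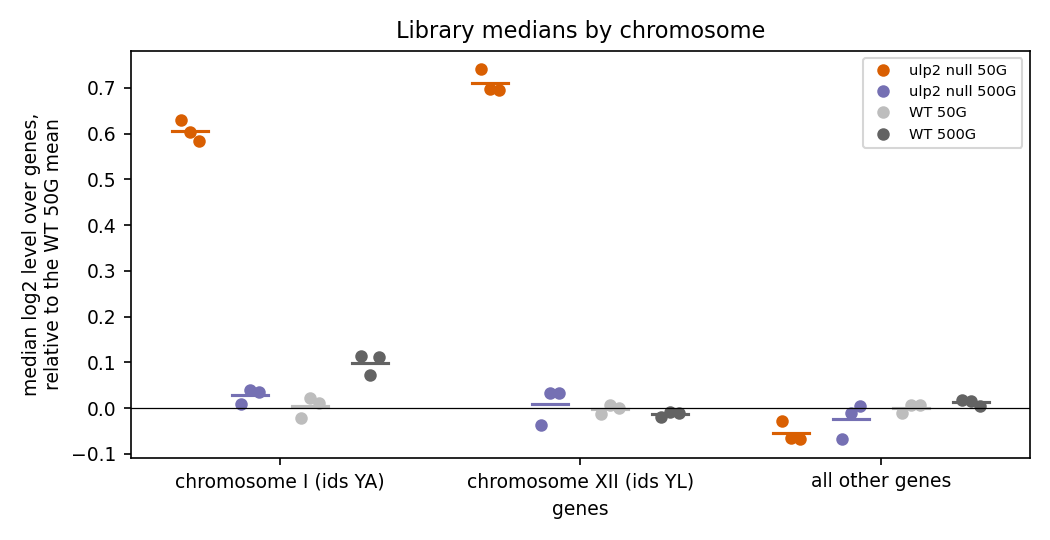
Median log2 level of genes in each library relative to the WT 50G mean (y axis, log2 units) for genes of chromosome I, of chromosome XII and of all other chromosomes (x axis), with points for the 3 libraries of a group and a bar for their mean. The nascent *ulp2* null libraries sit between 0.58 and 0.74 on chromosomes I and XII, and the adapted ones between -0.04 and 0.04.

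In WT cells the medians over the same passages were 0.10 on chromosome I and -0.02 on chromosome XII. The difference between the passage differences of the strains (the interaction term of the same limma fit) passed the test for 60 of 116 chromosome I and 368 of 557 chromosome XII genes. Off these chromosomes it passed for 18.1% of tested genes, 10.6% with the *ulp2* null difference higher and 7.48% with it lower. The decrease ran along both chromosomes. In windows of 50 kb with at least 10 genes, the *ulp2* null medians lay between -0.69 and -0.51 in 4 windows of chromosome I and between -1.15 and -0.49 in 21 windows of chromosome XII, while WT windows lay between -0.05 and 0.20 and between -0.20 and 0.16. On chromosome XII the left arm (59 genes), the stretch from the centromere to the ribosomal RNA genes (150 genes) and the stretch beyond them (282 genes) had medians of -0.76, -0.74 and -0.76. The 14 tested genes inside the ribosomal DNA (chrXII:451786-489469) had a median of -0.20. Away from these chromosomes, medians ran from -0.17 on chromosome XIII to 0.11 on chromosome III.

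**Figure D2:**
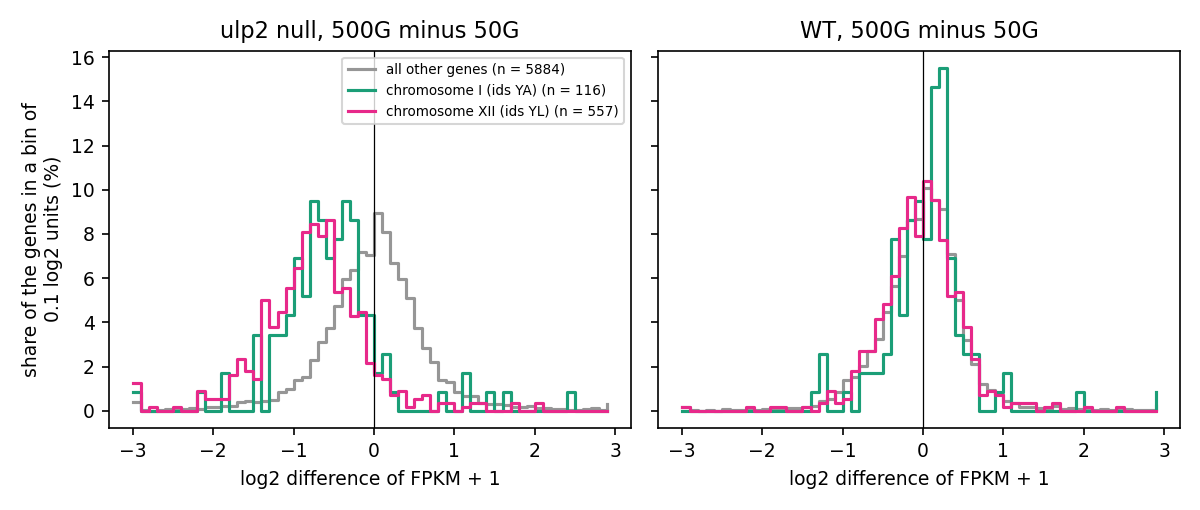
Share of genes (y axis, percent) in each bin of log2 difference between 500G and 50G (x axis, log2 of FPKM + 1) in *ulp2* null cells (left) and WT cells (right), for genes of chromosome I, of chromosome XII and of the other chromosomes, with values beyond the axis drawn in its end bins. In *ulp2* null cells the curves of chromosomes I and XII sit left of the others, at medians of -0.56 and -0.74, and in WT cells the 3 curves lie on either side of 0, with chromosome I at a median of 0.10.

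The 6 and 23 genes that rose on these chromosomes were of several kinds. On chromosome I, *ACS1*, the acetyl-CoA synthetase whose promoter is shown above, was at 635, 620.2 and 674 FPKM in nascent and 3481, 3567 and 3568 FPKM in adapted cells, a log2 difference of 2.46 (SE 0.06, adjusted p = 3.46e-10). *YAT1*, a carnitine acetyltransferase, rose by 1.62 (SE 0.12) and *GDH3*, a glutamate dehydrogenase, by 1.45 (SE 0.06). The other 3 rises were *PHO11*, an acid phosphatase with near-identical copies elsewhere, and *YAR009C* and *YAR010C* of a Ty1 element. On chromosome XII, the 23 that rose included *IDP2*, the cytosolic isocitrate dehydrogenase, at 567, 551 and 544 FPKM in nascent and 1088, 1239.9 and 1258 FPKM in adapted cells (1.10, SE 0.07), *ACO1*, aconitase (1.38, SE 0.08), *SDH2*, a subunit of succinate dehydrogenase (0.95), *FBP1*, fructose-1,6-bisphosphatase (0.66), *ECI1*, a peroxisomal enzyme of fatty acid oxidation (1.71), and *NRS1* (1.76, SE 0.13). The paired open reading frames *YLR154C-H* and *YLR156C-A* inside the ribosomal DNA rose by 2.07 and 2.09, but they lie in repeats that share reads and are uncertain. *IDP2*, *SDH2*, *FBP1* and *ECI1* were picked after their values were seen.

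The largest falls on chromosome I were *DFP2* (74.5, 75.7 and 61.5 FPKM in nascent, 6.86, 0 and 16 FPKM in adapted libraries), *CYS3*, cystathionine gamma-lyase (142, 153 and 169 against 36.2, 45.9 and 42.6 FPKM), *YAR030C* and *YAR064W*. On chromosome XII they were *YLR466C-B* (61.9, 86.6 and 28.7 FPKM against listed at 0 in all 3 adapted libraries), *YLR163W-A*, *YLR412C-A* and *YLR342W-A*. The groups overlapped for none of these 8 genes, but *YLR163W-A* ranged from 34.3 to 135 FPKM among the 6 WT libraries. *CYS3* also fell in WT, by 1.30, and its interaction did not pass (adjusted p = 0.086), whereas *YLR412C-A* stood at 0 to 1.58 FPKM in all 6 WT libraries and at 25.8, 40.1 and 39.5 FPKM in nascent *ulp2* null cells.

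Genes for using non-fermentable carbon rose together in adapted *ulp2* null cells. Of the 21 genes of gluconeogenesis and the glyoxylate cycle off chromosomes I and XII, 20 rose, with a median log2 difference of 1.54, and all 4 members on those chromosomes rose too. With the equal-sum scaling 18 of the 21 still rose, with a median of 1.16. *CIT3*, the mitochondrial 2-methylcitrate and citrate synthase, was at 93.9, 92.6 and 91.6 FPKM in nascent and 1378, 1239 and 1259 FPKM in adapted cells. This was a log2 difference of 3.79 (SE 0.07, adjusted p = 3.78e-11), and every adapted library lay above every nascent one. *PDH1*, its chromosomal neighbour and the 2-methylcitrate dehydratase, was at 126, 110.4 and 114 FPKM and then at 1195, 1068 and 1178 FPKM (3.29, SE 0.08). *ADH2*, the alcohol dehydrogenase that consumes ethanol, went from 1378, 1239.6 and 1213 FPKM to 11912, 12545 and 11232 FPKM (3.22, SE 0.08), and *ADY2*, an acetate transporter, from 797, 589.8 and 488 FPKM to 8418, 6045 and 5894 FPKM (3.45, SE 0.24).

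**Figure D3:**
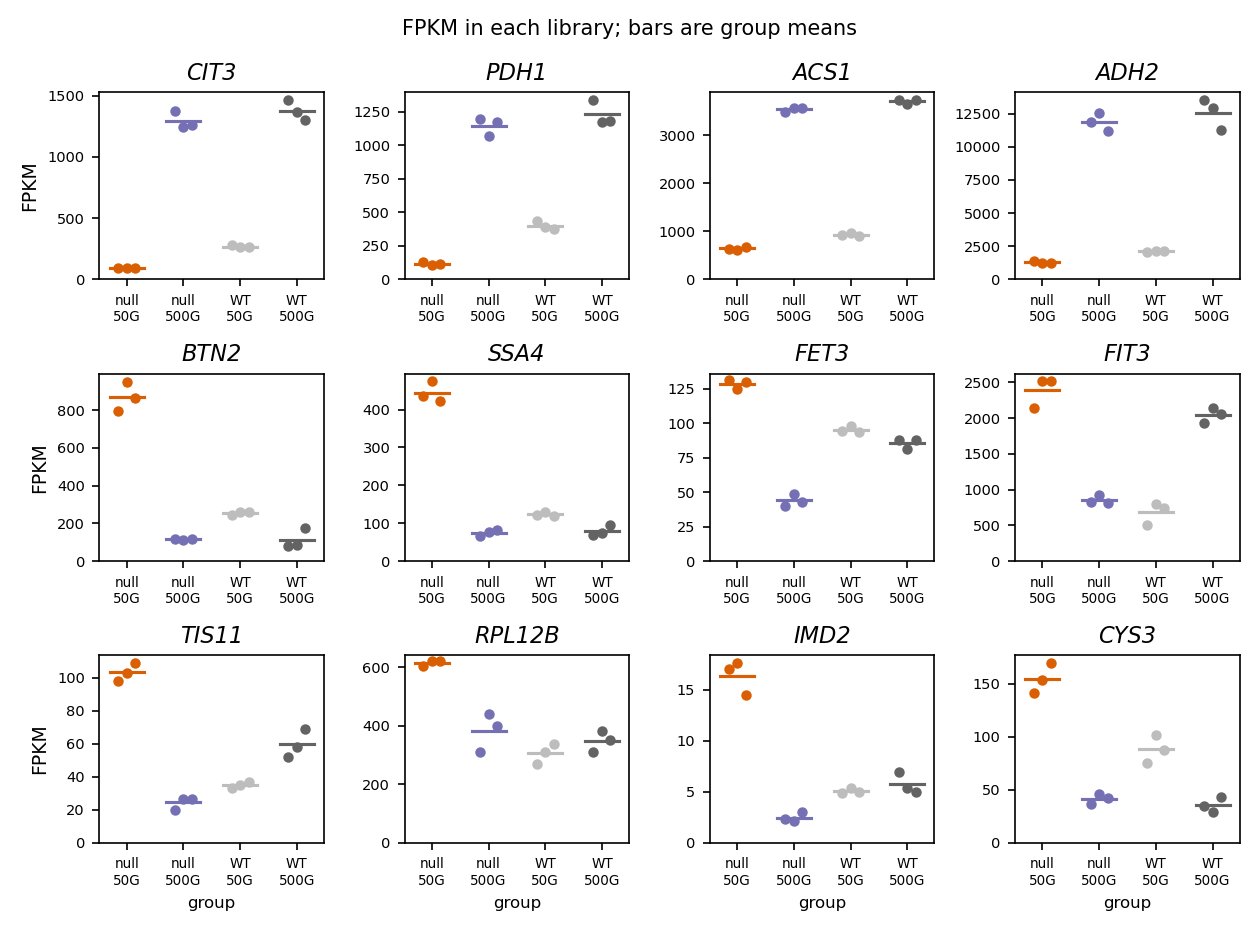
FPKM (y axis, linear from 0) of 12 genes in each of the 12 libraries by group (x axis, null for *ulp2* null), with bars at group means. *CIT3* sits at 91.6 to 93.9 FPKM in nascent and at 1239 FPKM or more in adapted *ulp2* null libraries, and *FIT3* falls in *ulp2* null cells and is higher at 500G than at 50G in WT cells.

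Passaging of WT cells gave a smaller difference in this list. The WT median over the 21 genes was 0.80, with 16 higher. The interaction passed for 14 of the 21, all toward a larger rise in *ulp2* null cells. *CIT3* rose by 2.36 in WT, with an interaction of 1.43 (adjusted p = 1.22e-05), and *PDH1* by 1.62, with an interaction of 1.67 (adjusted p = 1.63e-05). The *ADY2* rise of 2.87 in WT did not differ detectably from that in *ulp2* null cells (interaction 0.58, SE 0.34, adjusted p = 0.26). Nascent *ulp2* null cells stood below nascent WT cells for these 21 genes by a median of 0.73 log2 units, and adapted cells below adapted WT cells by 0.08. These values share libraries with the passage differences.

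TCA cycle genes followed the same course. Off chromosomes I and XII 22 of 23 rose (median 0.78), in WT 10 rose and 1 fell (median 0.28), and the interaction passed for 17, all higher. The equal-sum scaling left 18 of the 23 higher and 1 lower in *ulp2* null cells (median 0.40). *SDH3*, an anchor subunit of succinate dehydrogenase, was at 1162, 1082 and 943 FPKM in nascent and 4528, 3339 and 3710.4 FPKM in adapted cells (1.85, SE 0.14), with no called change in WT (0.33, adjusted p = 0.0753) and an interaction of 1.52 (adjusted p = 0.000337). *SDH1*, the flavoprotein subunit, rose by 1.46 (SE 0.07, interaction 1.30). *MPC1*, a subunit of the mitochondrial pyruvate carrier, rose by 1.85 in *ulp2* null and 1.68 in WT cells.

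Of 36 nuclear genes for the respiratory chain and ATP synthase off chromosomes I and XII, 33 rose and 2 fell (median 0.82). In WT 17 rose and 4 fell (median 0.32), and 22 passed the interaction higher and 2 lower. The equal-sum scaling left 25 higher and 2 lower in *ulp2* null cells (median 0.44). *NDE2*, the external NADH dehydrogenase, went from 125, 132 and 137 FPKM to 813, 1132 and 1046 FPKM (2.90, SE 0.10). *STF1*, a regulator of the ATP synthase, rose by 1.48, and *COX5A*, the aerobic form of a cytochrome c oxidase subunit, by 1.32 (SE 0.08). The 2 that fell, *CYC7* and *COX5B*, encode the hypoxic forms of cytochrome c and of the same oxidase subunit. *CYC7* went from 349, 331 and 318 FPKM to 119, 119.5 and 127 FPKM (-1.44, SE 0.10, interaction -1.05), and *COX5B*, picked as the other exception after its value was seen, fell by 0.81. Genes of the mitochondrial ribosome and translation did not rise with them. Of 82 off chromosomes I and XII, 9 rose and 23 fell (median -0.04), while in WT 2 rose and 46 fell (median -0.35), and the interaction passed for 23 genes, all in the direction higher in *ulp2* null. With the equal-sum scaling 2 rose and 60 fell (median -0.40), and without adapted replicate 1 or nascent replicate 2 the falls were 15. *YML6*, a large-subunit protein of this ribosome, fell by 0.70 in *ulp2* null and by 1.02 in WT cells, and *KGD4*, a component of a TCA cycle enzyme complex that was first named as a mitochondrial ribosomal protein, rose by 0.87.

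Peroxisome and fatty acid oxidation genes rose as well, 33 of 45 with 3 lower (median 0.64; 30 and 3 in WT, median 0.48), and 13 passed the interaction higher and 1 lower. The equal-sum scaling left 22 higher and 10 lower, and without adapted replicate 3 the 3 falls were 1. *IDP3*, a peroxisomal isocitrate dehydrogenase, was at 63.2, 63.9 and 63.5 FPKM in nascent and 423, 456 and 485 FPKM in adapted cells (2.82, SE 0.06). *POX1*, the acyl-CoA oxidase that opens beta-oxidation, went from 62, 50.7 and 54.6 FPKM to 387, 390.1 and 385 FPKM (2.78, SE 0.09), more than in WT (interaction 1.15, adjusted p = 0.000169). *FOX2*, the multifunctional enzyme of the same pathway, rose by 2.67 and *CTA1*, the peroxisomal catalase, by 2.75.

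In glycolysis and fermentation 13 of 23 genes rose and 2 fell (median 0.41), which the equal-sum scaling reduced to 6 higher and 7 lower (median 0.03), and with the chromosome XII members included that scaling turned the median of the list to -0.15. *FBA1*, aldolase, was at 3665, 3922 and 3766 FPKM and then 7614, 8686 and 8278 FPKM (1.11, SE 0.07). *TDH1*, a glyceraldehyde-3-phosphate dehydrogenase expressed mostly outside exponential growth, rose by 1.03 (SE 0.09) with no called change in WT (0.06), an interaction of 0.97 (adjusted p = 0.000418). *PGI1* rose by 0.89 and *PGK1* by 0.70. The 2 that fell off chromosomes I and XII were *HXK1* and *ADH1*, looked up for that reason, and *PDC5*, a pyruvate decarboxylase on chromosome XII, fell by 1.71 (SE 0.14).

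Of 17 hexose transporter genes, 2 rose and 5 fell (median -0.39), and 11 fell with the equal-sum scaling. Without adapted replicate 3 or nascent replicate 1 the falls were 3. *HXT5*, a transporter of slow-growing cells, rose by 0.97, and *HXT2*, a high-affinity transporter, fell by 1.15 (SE 0.23), in WT by 1.49. Among 18 genes of glucose repression and signalling 6 rose and 6 fell. The repressors *MIG1* and *NRG2* fell by 0.75 and 0.94, *STD1*, which acts in glucose sensing, by 1.43, and *TOS3*, a kinase upstream of Snf1, by 1.27, and none of these 4 passed the interaction (adjusted p = 0.213, 0.246, 0.451 and 0.664). With the equal-sum scaling 10 of the 18 fell.

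Storage carbohydrate genes rose in 11 of 20 and fell in 3 (median 0.44, and 0.06 with the equal-sum scaling). Over all 22 tested members, chromosomes I and XII included, that scaling turned the median from 0.29 to -0.09. *GIP2* and *GAC1*, which target a phosphatase to glycogen metabolism, rose by 1.19 and 1.11, *GLG1*, glycogenin, by 1.00, and *GLC3*, the branching enzyme, by 0.95. The interaction passed for 9 of the 20, all higher.

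**Figure D4:**
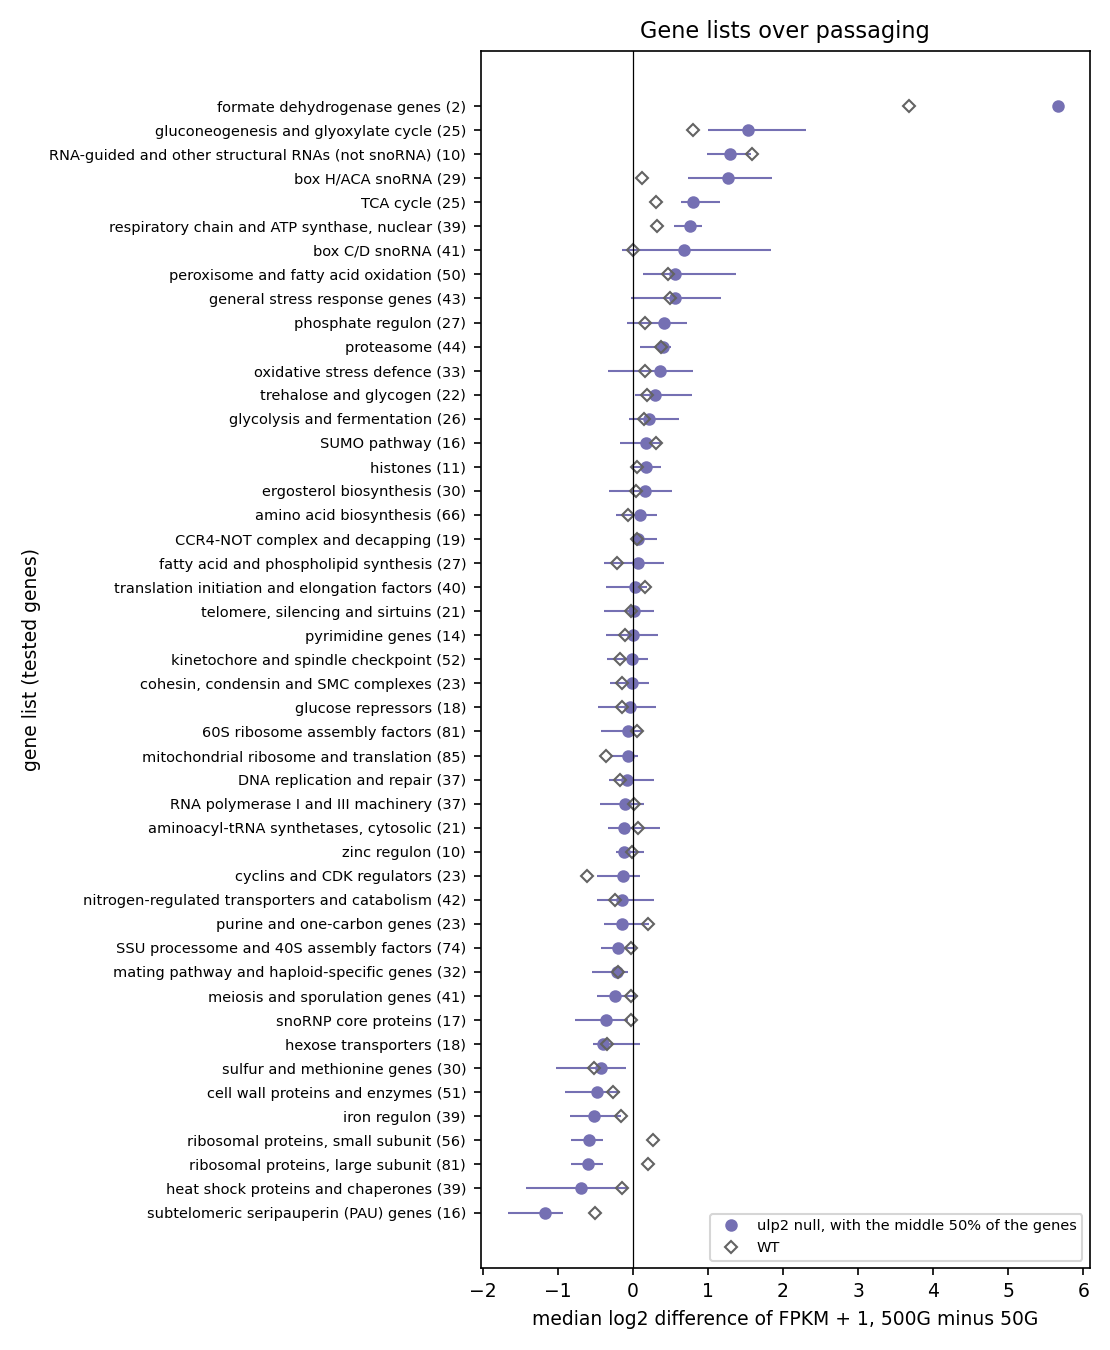
Median log2 difference between 500G and 50G (x axis, log2 of FPKM + 1) for 47 gene lists (y axis, number of tested genes in brackets, chromosomes I and XII included), with filled circles and lines for *ulp2* null cells (median and middle 50% of genes) and open diamonds for WT cells. Gluconeogenesis, TCA cycle and respiratory chain genes sit further right in *ulp2* null than in WT cells, and ribosomal protein genes sit left in *ulp2* null cells and right in WT cells.

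Heat shock and chaperone genes fell. Of 34 off chromosomes I and XII, 21 fell and 6 rose (median -0.54), and all 5 on those chromosomes fell (median -1.60). *BTN2*, which collects misfolded proteins and has the 2 overlapping heat shock elements shown above, was at 796, 949.8 and 866 FPKM in nascent and 115, 112 and 117 FPKM in adapted cells. This was a fall of 2.91 log2 units (SE 0.23, adjusted p = 2.87e-06), and the groups did not overlap. *SSA4*, the stress-inducible Hsp70, went from 435, 474 and 422 FPKM to 66.7, 76.2 and 83.1 FPKM (-2.55, SE 0.12). *ERO1*, the oxidase for disulfide formation in the endoplasmic reticulum, fell by 2.27 (SE 0.10), and *CPR6*, an Hsp90 co-chaperone on chromosome XII, from 654, 698 and 616 FPKM to 152, 144 and 148 FPKM.

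The fall was larger than in WT. There 13 of the 34 fell and 9 rose (median -0.07), and the interaction passed for 15 of the 34, all lower. For *SSA4* the interaction was -1.90 (adjusted p = 4.2e-05) and for *BTN2* -1.65 (adjusted p = 0.0047). *SSA4* was at 122, 129.5 and 119 FPKM in nascent WT and 69.5, 72.8 and 95 FPKM in adapted WT cells, so the adapted *ulp2* null and WT libraries overlapped. The 6 that rose, named after their values were seen, were *HSP12*, *HSP26*, *HSP32*, *HSP33*, *CDC37* and *SBA1*, with *HSP12*, a membrane stress protein that also belongs to the Msn2 and Msn4 targets, at 1.62 and *HSP26*, a small heat shock protein, at 1.01.

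General stress genes, the Msn2 and Msn4 group, went the other way. Of 40 off chromosomes I and XII, 26 rose and 5 fell (median 0.61), against 22 and 6 in WT (median 0.51), and 11 passed the interaction higher and 2 lower. The equal-sum scaling left 20 higher and 10 lower. *SIP18*, a protein of desiccation stress, was at 1779, 2335 and 2168 FPKM in nascent and 17195, 13758 and 16740.0 FPKM in adapted cells (2.93, SE 0.12), and its rise exceeded that in WT (interaction 1.94, adjusted p = 4.79e-05). WT libraries held 15266, 14664 and 16055 FPKM at 50G and 30257, 34196 and 27022 FPKM at 500G, so adapted *ulp2* null cells stayed below adapted WT cells. *SPG1*, *GRE1* and *NQM1* rose by 2.75, 2.74 and 1.79, with rises of 2.56, 2.53 and 1.49 in WT.

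Of 30 genes of oxidative stress defence, 17 rose and 6 fell (median 0.42), which the equal-sum scaling made 11 and 11 (median 0.05), and with chromosomes I and XII included the equal-sum scaling turned the median of the list to -0.02. *TRR2*, the mitochondrial thioredoxin reductase, rose by 1.42 (SE 0.05), *GTT1*, a glutathione transferase, by 1.21 and *CTT1*, the cytosolic catalase, by 1.16, while *AHP1*, a peroxiredoxin on chromosome XII, fell by 1.40 (SE 0.08). Proteasome genes rose in 29 of 41 and fell in 2 (median 0.41), against 29 and 1 in WT (median 0.39), and 3 passed the interaction. *RPN1* rose by 1.12, *BLM10* by 0.81, *PRE3* by 0.75 and *RPN8* by 0.74. With the equal-sum scaling 7 rose and 9 fell (median 0.03), and without any 1 of adapted replicate 1 and nascent replicates 1 and 3 no fall was called (0). *RPN4*, the activator of these genes, was itself lower, by 0.34, a value looked up after the list was seen.

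Iron regulon genes fell in 17 of 32 and rose in 4 (median -0.45), and fell in 5 of 7 on chromosomes I and XII. In WT 11 of the 32 fell and 6 rose (median -0.16). For *FIT3* and *TIS11* the direction differed between strains. *FIT3*, a cell wall mannoprotein that retains siderophore-bound iron, was at 2148, 2520.3 and 2519.7 FPKM in nascent and 832, 919 and 816 FPKM in adapted *ulp2* null cells, a fall of 1.48 (SE 0.15, adjusted p = 1.61e-05). The WT levels were 500.0, 797 and 748 FPKM at 50G and 1926, 2137 and 2058 FPKM at 500G, a rise of 1.61, and the interaction was -3.09 (SE 0.21, adjusted p = 1.41e-05). *TIS11*, an RNA-binding protein that degrades messages of iron-using proteins, was at 98.4, 103 and 109 FPKM and then 20.1, 26.5 and 26.7 FPKM (-2.05, SE 0.12).

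In WT *TIS11* rose by 0.75, with an interaction of -2.80 (adjusted p = 1.22e-05). It lies on chromosome XII, whose median passage difference was -0.74. *FET3*, the multicopper oxidase of high-affinity iron uptake on chromosome XIII, went from 132, 125 and 130.2 FPKM to 40.3, 48.8 and 43.2 FPKM (-1.53, SE 0.07) with no called change in WT (-0.15, adjusted p = 0.113). *FRE1*, a ferric reductase on chromosome XII, fell by 1.38 (SE 0.18). The 4 that rose, *ISU1*, *BIO2*, *ATX1* and *FET5*, were picked after their values were seen; *ISU1*, the scaffold for iron-sulfur clusters, rose by 1.13. In the test of the difference between strains 6 of the 32 passed lower and 3 higher.

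Phosphate regulon genes rose in 16 of 25 and fell in 3 (median 0.41, and 0.04 with 6 higher and 7 lower under the equal-sum scaling). *PHO89*, a sodium-phosphate cotransporter, went from 164, 135 and 136 FPKM to 802, 697 and 698 FPKM (2.33, SE 0.10), less than in WT (interaction -0.67, adjusted p = 0.00619). *PHO84*, the high-affinity transporter, rose by 1.03 with an interaction of 0.87 (adjusted p = 0.0418), and *GIT1* and *SPL2* rose by 1.27 and 1.16. Of 9 zinc regulon genes off those chromosomes 2 rose and 1 fell; *ZRT1*, the high-affinity zinc transporter, rose by 1.03 and *ZRT2*, the low-affinity one on chromosome XII, fell by 0.74.

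Sulfur and methionine genes fell in 13 of 24 and rose in 2 (median -0.33), and all 6 on chromosomes I and XII fell (median -1.35). *SAM1*, an S-adenosylmethionine synthetase on chromosome XII, went from 104, 126 and 119 FPKM to 17.5, 24.4 and 21 FPKM (-2.43, SE 0.19). *MUP1*, the methionine permease, fell by 1.53, and *MET17*, which makes homocysteine and also lies on chromosome XII, by 1.39. In WT 16 of the 24 fell (median -0.52), and for *MUP1* and *SAM1* the interaction did not pass (adjusted p = 0.838 and 0.0831).

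Among amino acid biosynthesis genes 26 of 63 rose and 14 fell (median 0.11), and the equal-sum scaling turned this into 9 higher and 36 lower (median -0.26). *GLT1*, glutamate synthase, was at 53.2, 46.2 and 46.3 FPKM and then 171, 143 and 157 FPKM (1.67, SE 0.11), well past its WT rise of 0.39 (interaction 1.28, adjusted p = 0.000328). *LEU4*, of leucine synthesis, rose by 1.67 and *BAT2*, a branched-chain aminotransferase, by 1.29. Of 40 genes of nitrogen transport and catabolism 11 rose and 11 fell (7 and 24 with the equal-sum scaling), and without nascent replicate 1 the falls were 7. *ATO3* and *ATO2*, of the family of putative ammonium exporters, rose by 2.89 and 2.18, with an interaction for *ATO2* of 1.58 (adjusted p = 7.14e-05), *PUT4*, the proline permease, rose by 1.83, and *TPO2*, a polyamine transporter, fell by 1.97 (SE 0.16).

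Purine and one-carbon genes rose in 7 of 17 and fell in 4 off chromosomes I and XII (median 0.12, which was negative with those chromosomes included and -0.25 under the equal-sum scaling). *IMD2*, the inosine monophosphate dehydrogenase that makes guanine nucleotides, was at 17, 17.6 and 14.5 FPKM in nascent and 2.3, 2.08 and 3.03 FPKM in adapted cells (-2.33, SE 0.15, adjusted p = 7.41e-07). WT libraries held it at 4.84, 5.37 and 5 FPKM at 50G and 6.9, 5.36 and 4.94 FPKM at 500G, with no called change and an interaction of -2.47 (adjusted p = 4.2e-05). Adapted *ulp2* null cells were thus below every WT library. *IMD4* fell by 1.28 in *ulp2* null and 1.20 in WT cells. *IMD2* and *IMD4* have close paralogs whose shared reads were left out of the authors' counting. Of 12 pyrimidine genes 5 rose and 3 fell, and the rises were 3 without any 1 of adapted replicates 1 and 3 and nascent replicates 2 and 3. The named members were *FUI1*, the uridine permease (1.15), and *URA2*, the first enzyme of the pathway (0.82, interaction 0.62, adjusted p = 0.00349).

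Ribosomal protein genes fell almost as a class in *ulp2* null cells and not in WT. Of 48 small-subunit genes off chromosomes I and XII, 40 fell and 0 rose in limma (0 also at an unadjusted p under 0.05), with a median of -0.58, and of 71 large-subunit genes 56 fell and 1 rose, with a median of -0.56. In WT 24 genes of each subunit rose and 1 fell in all (medians 0.27 and 0.20), and the interaction passed for 43 and 54, all lower. Nascent *ulp2* null cells stood above nascent WT by medians of 0.91 and 0.85, and adapted cells above adapted WT by 0.10 and 0.09. *RPL12B*, whose promoter is shown above, was at 603, 622 and 621 FPKM and then 309, 439 and 400.4 FPKM (-0.70, SE 0.13, interaction -0.88). *RPS18B* went from 534, 660.2 and 606 FPKM to 312, 339 and 363 FPKM (-0.82, SE 0.10), and *RPL32*, a single-copy gene, from 1483, 1506 and 1463 FPKM to 789.7, 885 and 913 FPKM (-0.78, SE 0.09).

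On chromosomes I and XII all 8 small-subunit and 9 of 10 large-subunit genes fell, with medians of -1.25 and -1.28. *RPL8B* fell by 1.86, *RPS29A* by 1.69, *RPS25B* by 1.63, *RPL6B* by 1.61 and *RPL31B* by 1.61. Most of these genes have a near-identical paralog, and reads with several locations were left out upstream, so values of single paralogs are uncertain. The 1 large-subunit gene that rose, *RPL41B* (0.55), lies off chromosomes I and XII. It encodes a very short protein and was picked after its value was seen. Of the activators, *IFH1* fell by 1.11 and *SFP1* by 0.87, both on chromosome XII, while *RAP1* was at 32.1, 29.4 and 33.5 FPKM and 29.6, 32.2 and 34.8 FPKM (0.02, adjusted p = 0.852) and *FHL1* at 0.28 (adjusted p = 0.112).

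**Figure D5:**
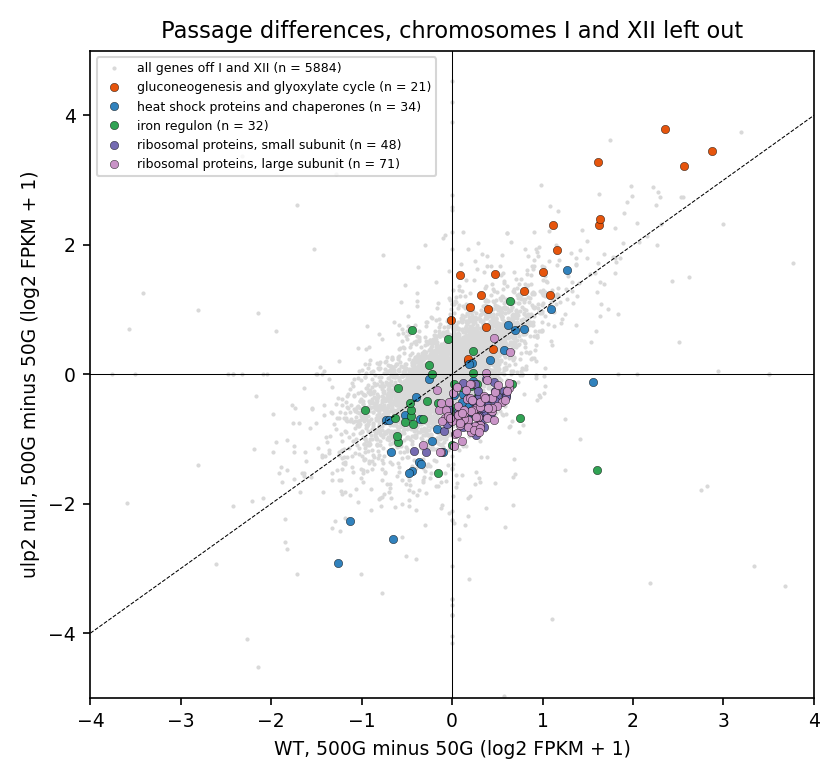
Log2 difference between 500G and 50G in *ulp2* null cells (y axis) against WT cells (x axis) for 5884 genes off chromosomes I and XII (grey, a few beyond the axes), with 5 gene lists coloured and the dashed line marking equal differences. Gluconeogenesis genes lie above the line in the upper right, heat shock genes mostly below it, and ribosomal protein genes below 0 in *ulp2* null and mostly above 0 in WT cells.

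Of 65 ribosome assembly factors of the small-subunit processome and 40S assembly, 20 fell and 5 rose (median -0.17), and of 69 factors of 60S assembly, 14 fell and 11 rose (median -0.01). With the equal-sum scaling 0 and 2 rose and 44 and 39 fell (medians -0.53 and -0.36). The 5 rises of the first list became 8 without adapted replicate 1, and the 60S list then had 14 rises and 11 falls. The 11 rises of the 60S list became 6 or 7 without any 1 of nascent replicates 2 and 3 and adapted replicates 2 and 3. Rises were a smaller share of both lists than of all genes. On chromosomes I and XII 9 of 9 and 11 of 12 fell. *SOF1* and *EMG1* (chromosome XII) fell by 1.79 and 1.49, and *UTP15* on chromosome XIII by 1.12 (SE 0.14). *RSA1*, which acts in 60S and box C/D snoRNP assembly, rose by 1.12, and by 1.19 in WT. In RNA polymerase I and III machinery 11 of 35 fell and 6 rose (median -0.05), or 18 and 0 with the equal-sum scaling, with *RRN11*, *RPC82* and *RPA34* lower by 0.81, 0.68 and 0.67.

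Translation factors rose in 9 of 34 and fell in 6. *HEF3*, the alternative elongation factor 3, rose by 2.13 (SE 0.06) and by 2.15 in WT, and *ANB1*, the hypoxic form of eIF5A, fell by 1.08 with an interaction of -0.97 (adjusted p = 0.00617). *EFB1* on chromosome I and *STM1* on chromosome XII fell by 1.20 and 0.94. Cytosolic aminoacyl-tRNA synthetases split, 8 of 19 higher and 6 lower (1 and 11 with the equal-sum scaling, median -0.44), with *KRS1* and *MES1* lower by 0.84 and 0.65 and *YDR341C*, the arginyl-tRNA synthetase, higher by 0.58.

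Small structural RNAs varied between libraries. The share called higher in adapted *ulp2* null cells was above the 26.8% of all genes for the box H/ACA class and near it for the box C/D class. Of 37 tested box C/D snoRNAs off chromosomes I and XII, 10 were called higher and 0 lower by limma (0 also at an unadjusted p under 0.05), with a median of 1.03. Of 26 box H/ACA snoRNAs, 16 were called higher and 0 lower (0 also unadjusted), with a median of 1.38. In WT 1 box C/D and 0 box H/ACA snoRNAs were called higher (2 and 0 at an unadjusted p under 0.05), with medians of 0.00 and 0.09, yet the interaction passed for 1 in each class (3 and 11 higher and 0 lower at an unadjusted p under 0.05), so a difference between strains was not shown for the rest. The mean FPKM of 6 of the 47 box C/D snoRNAs listed was too low to test. *SNR56* was listed at 0 in all 3 nascent libraries and at 175, 286 and 236 FPKM in the adapted ones, but it was also listed at 0 in 3 of the 6 WT libraries. *SNR81*, a box H/ACA snoRNA, was at 26.2, 30.5 and 52.2 FPKM and then 194, 234 and 93.6 FPKM (2.19, SE 0.44, adjusted p = 0.0018).

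*SNR45*, of the box C/D list, was at 274, 277 and 143 FPKM and then 1215, 2518 and 686 FPKM (2.53, SE 0.66), and replicate 2 was the highest adapted library. When a library was left out in turn, the count of higher box C/D snoRNAs ran from 4 to 11 and that of box H/ACA snoRNAs from 8 to 21. The lowest counts, 4 and 8, were those without adapted replicate 2, and without nascent replicate 3 the box H/ACA count was 9. The proteins that bind them did not rise as a group, with 3 of 15 core snoRNP factors higher and 6 lower (2 and 12 with the equal-sum scaling). *SNU13*, a box C/D core protein, fell by 1.51 (SE 0.12), *CBF5*, the pseudouridine synthase on chromosome XII, by 1.26, and *TAH1*, an assembly chaperone, rose by 1.12. Other structural RNAs rose in both strains, 6 of 9 in *ulp2* null (median 1.39) and 7 of 9 in WT (median 1.63). *SNR14*, the U4 spliceosomal RNA, was at 89.6, 256 and 136 FPKM and then 679.9, 610.2 and 483 FPKM (adjusted p = 0.00115). The labels give polyA RNA as the molecule and their extraction protocol describes libraries made from total RNA and names no selection step, while structural RNAs and snoRNAs lack the long tails of messenger RNAs.

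In the SUMO pathway itself 7 of 15 genes rose and 2 fell (median 0.18, turned to -0.19 by the equal-sum scaling). *MMS21*, a SUMO ligase of the Smc5/6 complex, was at 14.2, 18.5 and 18.7 FPKM and then 24.9, 29.6 and 34 FPKM (0.75, SE 0.17), *AOS1*, a subunit of the SUMO-activating enzyme, rose by 0.64, and *CDC48*, the segregase, by 0.62. *SMT3*, SUMO itself, was at 643, 697 and 701 FPKM and 475, 619 and 689.7 FPKM with overlapping groups (-0.21, SE 0.18, adjusted p = 0.342). *UBA2*, the other activating subunit, had a difference of 0.18 (SE 0.08, adjusted p = 0.0852) and *UBC9*, the conjugating enzyme, of 0.18 (adjusted p = 0.0819), which the equal-sum scaling turned to -0.20. RNA levels do not show the *UBC9* missense mutation that the paper reports in adapted *ulp2* null cells. Without adapted replicate 1 or nascent replicate 1 no fall in the list was called (0). *CST9* on chromosome XII fell by 1.19. No member of the 15 passed the interaction in limma (0, and 1 at an unadjusted p under 0.05). The *MMS21* call was lost with the equal-sum scaling.

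Cyclin and CDK regulator genes fell mainly in WT cells. Of 19 cyclin and CDK regulator genes, 3 rose and 6 fell in *ulp2* null cells (median -0.08; 0 and 11 with the equal-sum scaling), against 1 and 13 in WT (median -0.61), and the interaction passed for 7, all in the direction higher in *ulp2* null. *CDC6*, of replication licensing, fell by 1.13 and *FAR1*, a CDK inhibitor, by 0.66, in WT by 0.61 and 0.97. *CLN3*, a G1 cyclin on chromosome I, fell by 0.49, and *CLB4* on chromosome XII by 1.32. In DNA replication and repair 10 of 34 rose and 8 fell, with 12 higher and 2 lower in the interaction. *RNR4* and *RNR2*, the small subunits of ribonucleotide reductase, went from 547, 509 and 505 to 1554, 1544 and 1588 FPKM and from 312, 300.4 and 306 to 797, 765 and 834 FPKM (1.59 and 1.38). *HUG1*, an inhibitor of the same enzyme, fell by 1.09, and *PRI2*, a primase subunit, rose by 0.67 with no called change in WT (interaction 0.73, adjusted p = 0.000366).

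Kinetochore and spindle checkpoint genes rose in 7 of 48 and fell in 10, both smaller shares than the background, and without adapted replicate 1 the rises were 12. *MAD1*, of the spindle checkpoint, rose by 0.82 and *SKP1* by 0.80, and *MTW1* on chromosome I fell by 0.81. In cohesin, condensin and Smc5/6 complexes 5 of 19 rose and 2 fell. The rises became 2 or 3 without any 1 of the nascent libraries and adapted replicates 2 and 3, and the falls became 4 without WT 500G replicate 1. *ECO1*, the cohesin acetyltransferase, rose by 0.52 against a WT fall of 0.39 (interaction 0.91, adjusted p = 0.000673). The *ECO1* rise lost its call with the equal-sum scaling. Of 11 histone genes 4 were called higher and 0 lower by limma (0 also at an unadjusted p under 0.05), and with the equal-sum scaling 5 were lower and 0 higher. *HHT2*, a histone H3 gene, was among the 4 (0.47). In telomere and silencing factors 4 of 17 rose and 3 fell, with *SIR2*, the histone deacetylase, higher by 0.55 (interaction 0.73, adjusted p = 0.00745), *CRF1*, a corepressor of ribosomal protein genes, higher by 1.34 and *SIR3* on chromosome XII lower by 0.72. The *SIR2* call was lost with the equal-sum scaling.

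In the CCR4-NOT complex and decapping factors 6 of 17 rose and 0 fell by limma (0 also at an unadjusted p under 0.05), led by *DHH1* (0.92), *PAT1* (0.75) and *CDC39* (0.68). That count became 3 higher and 10 lower with the equal-sum scaling, under which the median of the list with chromosomes I and XII included was -0.29. *CCR4*, the deadenylase on chromosome I, was at 45.1, 50.4 and 58.4 FPKM in nascent and 37, 43.7 and 44.2 FPKM in adapted cells. Its fall of 0.29 (adjusted p = 0.0454) lost its call when any of 9 of the 12 libraries was left out.

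Cell wall genes fell in 26 of 41 and rose in 5 (median -0.43), the rises being 3 without adapted replicate 2 or 3 or nascent replicate 2, and 9 of 10 on chromosomes I and XII fell. *UTR2*, which links chitin to glucan, went from 52, 52.9 and 45.1 FPKM to 14.2, 15.1 and 11.9 FPKM (-1.80, SE 0.11), and *DAN1*, a mannoprotein of anaerobic cells, fell by 1.42. *TIP1*, a mannoprotein of stationary and cold-shocked cells, rose from 1332, 1304 and 1221 FPKM to 9068, 7301 and 7306 FPKM (2.61, SE 0.11), and by 2.25 in WT. *YPS3* and *CCW12* on chromosome XII fell by 1.55 and 1.11. Of 12 tested seripauperin (*PAU*) genes off those chromosomes 7 fell (median -1.36), but 8 of the 24 *PAU* genes were too low to test and the family shares reads. *PAU3* was at 10.4, 11.8 and 9.99 FPKM and then 2.99, 3.33 and 2.07 FPKM.

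Mating genes fell in 11 of 30 and rose in 1 (median -0.20; 9 and 2 in WT, median -0.20). The falls were 7 without nascent replicate 1, and the rises 3 without adapted replicate 1. *CIK1*, a motor-associated protein of karyogamy, fell by 0.72 and *STE3*, the a-factor receptor that marks *MATalpha* cells, from 11.6, 8.61 and 7.8 FPKM to 5.1, 4.46 and 4.94 FPKM. Meiosis and sporulation genes fell in 13 of 37 and rose in 5 (median -0.18), or in 25 and 2 (median -0.53) with the equal-sum scaling. Without adapted replicate 1 the falls were 8. All 4 on chromosomes I and XII fell (median -1.62), with *RED1*, of the meiotic chromosome axis, from 33.8, 37.8 and 39.1 FPKM to 8.04, 12.5 and 12.8 FPKM. In ergosterol synthesis 14 of 26 rose and 6 fell (median 0.29, and -0.08 with 5 higher and 11 lower under the equal-sum scaling), and without nascent replicate 1 the falls were 3. *ERG6* and *ERG28* rose by 1.03 and 0.87, and *UPC2*, the activator of the pathway, fell by 0.84 (interaction -0.70, adjusted p = 0.00328). Of 25 genes for fatty acid and phospholipid synthesis 9 rose and 5 fell, with *INO1* and *OPI3* higher by 0.97 and 0.95 and *CKI1* on chromosome XII lower by 1.21.

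Apart from *SNR56*, the largest single rises off chromosomes I and XII were those of the formate dehydrogenase genes. *FDH1* was at 15.4, 13.6 and 12.7 FPKM in nascent and 702, 692 and 691 FPKM in adapted cells (5.55, SE 0.08), and in WT at 13.6, 12.8 and 12.2 and then 148, 146 and 131 FPKM, which gave an interaction of 2.19 (adjusted p = 8.32e-06). *FDH2* and the adjoining *YPL276W*, which are near-copies of it and uncertain one by one, rose by 5.77 and 5.44. *RGI2*, of respiratory growth, rose by 3.74 (SE 0.10) and *DPC7* from 150.4, 163 and 134 FPKM to 2052, 1616 and 1909 FPKM (3.63, interaction 1.88, adjusted p = 0.000104). The largest falls included 4 low or short open reading frames, *YOR161W-A*, *YJL077W-B*, *YIR018C-A* and *YNL140C*. The calls of the first 3 were lost when single libraries were left out. *YOR161W-A* was listed at 0 in all adapted libraries and at 425, 331 and 248 FPKM in the nascent ones, yet it was also listed at 0 in 4 of the 6 WT libraries. *YGR035C* fell from 117, 109.6 and 116 FPKM to 12.5, 17.9 and 20.9 FPKM (-2.70, SE 0.21), also in WT (-1.82).

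Over all genes off chromosomes I and XII, the passage difference of *ulp2* null cells was partly that of WT cells. Of the 1577 genes that rose, 924 also rose in WT and 53 fell there, and of the 1441 that fell, 690 also fell and 69 rose. In the interaction 448 of the rises and 344 of the falls were larger in *ulp2* null cells, and 17 and 43 passed in the opposite direction. The 2 passage differences share no library, and across these 5884 genes, which are not independent replicates, their Pearson r was 0.54. The median absolute log2 difference was 0.34 in *ulp2* null and 0.28 in WT cells.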

How the data were processed

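RNA-seq libraries (TruSeq stranded, 3 per strain and passage, 12 in all) were trimmed, aligned with TopHat2 2.1.1 to the R64 genome keeping uniquely mapped reads, and summarised by Cuffdiff (Cufflinks 2.2.1) with bias correction by the authors, who deposited FPKM per gene and library. All sample columns were used (0 left out). Uniquely mapped reads under-count near-identical genes.

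FPKM was analysed as log2(FPKM + 1) for the genes whose FPKM averaged 1 or more over the 12 libraries, in 1 limma 3.58.1 model (R 4.3.3, trended variance) with the 4 groups as terms. Contrasts were 500G minus 50G in *ulp2* null cells, the same in WT, and their difference (interaction), each Benjamini-Hochberg adjusted over all 6572 genes tested, with a threshold of 0.05. Library medians were compared by exact two-sided permutation tests. The fit was tested on simulated data. As the values are not counts, precision could not be given from depth.

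Genes were assigned to chromosomes I and XII by names starting YA and YL. RNA genes there without such names were assigned by the chromosome letter in tRNA names, the RefSeq annotation or a ribosomal RNA name. Of these RNA genes, 15 were tested. Of 7126 table genes 6048 matched RefSeq R64 by systematic name and 114 by symbol, and 964 did not match. The 16 motifs were searched in the 500 bases before the start codon of 5890 genes.

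The genes named were, off chromosomes I and XII, the 10 largest rises and 10 largest falls among called genes whose 9 library pairs moved 1 way with a mean FPKM of at least 10 in 1 group, on each of those chromosomes the 4 largest falls and up to 3 rises by that rule, in each list up to 4 called members with the largest differences, and fixed genes of the SUMO pathway, ribosome and silencing. Members, lists and rule were chosen with earlier results of these data known, and genes outside the rule are marked in the text. Same-numbered libraries did not deviate together (Pearson r -0.04, -0.06 and 0.00 for numbers 1, 2 and 3), so the numbers were not taken as pairs. Alternatives were 3 other scalings, 2 filters, a pseudocount of 0.1, no trend, a fit of the 2 groups alone, a replicate block, a threshold of 0.01, chromosomes I and XII left out, and each library left out.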

Additional observations from a re-analysis of the deposited data

Results flagged for a closer look

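Several passage differences differed between *ulp2* null and WT cells by the interaction term of the limma fit, and no explanation was weighed. It passed for 60 genes of chromosome I, 368 genes of chromosome XII and 1066 genes elsewhere. Among the gene lists, members on chromosomes I and XII included, it passed for at least 50% of members in 7 of the lists with 5 or more tested members, and for both formate dehydrogenase genes. The 7 were gluconeogenesis and the glyoxylate cycle (18 of 25), the TCA cycle (19 of 25), the respiratory chain and ATP synthase (24 of 39) and glycolysis and fermentation (14 of 26), where most of the passing members rose more in *ulp2* null cells, and heat shock proteins and chaperones (20 of 39), small-subunit ribosomal proteins (51 of 56) and large-subunit ribosomal proteins (63 of 81), where the *ulp2* null difference was the lower one.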

How the results depend on the processing

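The equal-sum scaling, chosen because the FPKM sums moved with passage, changed most. Under it 599 genes were higher and 3607 lower (578 and 3013 off chromosomes I and XII), and the median log2 difference was -0.92 on chromosome I, -1.11 on chromosome XII and -0.35 elsewhere. The medians of these lists, chromosomes I and XII included, turned negative: glycolysis -0.15, trehalose and glycogen -0.087, oxidative stress -0.019, SUMO -0.19, CCR4-NOT -0.29, histones -0.20, amino acids -0.26, ergosterol -0.21, translation factors -0.35, silencing -0.34, pyrimidine genes -0.37, and fatty acids and phospholipids -0.31. So did *HTB1* (-0.051), *SIZ1* (-0.042), *UBC9* (-0.20), *ACT1* (-0.049), *ZRT3* (-0.084), *RAP1* (-0.34) and *ULP1* (-0.011). The median of DNA replication turned to 0.029 both with a filter at a mean FPKM of 10 and with chromosomes I and XII left out, and those of purine, kinetochore and cohesin genes to 0.12, 0.071 and 0.075 with them left out. The chromosome I median was -0.58 with median-of-ratios scaling set off chromosomes I and XII and -0.62 with a pseudocount of 0.1, and the median elsewhere was 0.045 when genes needed a mean FPKM of 10. With an adjusted p under 0.01, 949 genes off chromosomes I and XII were lower and 868 genes passed the interaction. With single libraries left out, the medians ranged from -0.60 to -0.56 on chromosome I, from -0.75 to -0.71 on chromosome XII and from -0.12 to 0.036 for DNA replication. The cause of these changes was not tested.

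A replicate block, by which same-numbered libraries would be pairs, gave 1899 higher and 2205 lower genes, 1866 and 1675 off chromosomes I and XII, and 2101 in the interaction. Since 0 of the 6 *ulp2* null libraries correlated best with its own number, it was not used. The fit of the 2 *ulp2* null groups alone gives no interaction. Without counts, precision from depth is not known, genes near 1 FPKM are understated by the pseudocount, and snoRNA counts varied most between libraries.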

Other observations

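Ty retrotransposon genes, whose Gag and Gag-Pol proteins form virus-like particles, were looked at after their values had been seen on chromosome I, and are given as a description. Of 91 Ty Gag and Gag-Pol genes listed, 51 could be tested, of which 38 were higher and 0 lower in adapted than in nascent *ulp2* null cells by limma, with a median log2 difference of 0.77 and a range from -2.36 to 1.60. In WT cells 5 were higher and 0 lower (median 0.10), and the interaction passed for 23, all higher. These copies are near-identical and share reads, so they are not separate measurements.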
